A study of Anas platyrhynchos with 8 samples.

Results

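The circadian clock genes described here are ARNTL, CLOCK, NPAS2, CRY1, CRY2, PER2, PER3, NR1D1, NR1D2 and TEF, 10 symbols matched by name as core genes of the clock and its nearest output, a set drawn up with earlier results of these data known. Of these, 9 had rows in the mRNA table under their symbol, 60 transcript rows out of 48592, and 9 of the 13213 symbols in the table. NR1D1 had no row under its symbol and was not analysed here. The libraries were made from abdominal fat of ducks (Anas platyrhynchos) of an F2 population, all aged 42 days and kept under the same conditions with free access to food and water. HF denotes the 4 libraries from ducks with high abdominal fat ratios and LF the 4 libraries from ducks with low ratios, and the comparison asks which genes differ with fat deposition. No genotype, treatment or sex is given for either group, and whether each library holds 1 bird or several is not stated. The p-values therefore reflect only how these samples vary, which may be technical. Sources used here do not give the time of day at sampling.

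The vertebrate clock is a transcription loop that runs in most tissues, fat included. ARNTL (also called BMAL1) pairs with CLOCK or its relative NPAS2 and switches on the period and cryptochrome genes, whose proteins return to the nucleus and block that pair. The same pair switches on the REV-ERB receptors NR1D1 and NR1D2, which repress ARNTL, and the PAR-bZIP factors, among them TEF, which carry the rhythm to other genes. In mammals ARNTL and the REV-ERB, period and PAR-bZIP mRNAs peak at opposite parts of the day, and in adipose tissue the loop is known to pace lipid storage and release.

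Total estimated counts per library ranged from 12696240 to 30836178. Adipocyte markers summed to 16267 to 23709 FPKM (fragments scaled to transcript length and library size) in HF and 17840 to 23195 in LF, with all 8 of 8 markers present, and these ranges overlapped. Of the 10 marker lists, the groups separated for the lymphocyte list only, at 15.1 to 16.6 summed FPKM in HF and 7.94 to 14.3 in LF. Macrophage markers ranged from 882 to 1239 in HF and from 523 to 909 in LF. Gene by gene, 7 of 8 tested macrophage markers and 7 of 7 stromal progenitor markers had positive fold changes of HF over LF. Their medians were 0.60 and 0.30 on the log2 scale. Lymphocyte (5 of 5) and erythroid (3 of 3) markers were also positive, with medians of 0.76 and 0.39. Endothelial (5 of 7), smooth muscle (3 of 4) and skeletal muscle (4 of 4) markers were negative, with medians of -0.52, -0.63 and -1.44. The adipocyte, mesothelial, and nerve and glia lists had medians of -0.01, -0.10 and 0.02. The adipocyte median covers both directions, with 3 markers positive and 5 negative. Counts scaled to library size did not overlap between the groups for 1 adipocyte marker higher in HF and 1 lower, against 9.19% of all genes. Of the smooth muscle markers, only the positive 1 did not overlap. Of 54 markers tested, edgeR and limma each called 0, and DESeq2 called 9, against 5.64% of all genes. With edgeR 16 of the 54 had an unadjusted p under 0.05, against 14.9% of all genes. The mesothelial marker UPK3B was at 0 in every library. Transcripts described as W-linked held 1818 to 4226 counts in the 4 HF libraries, 2861 in LF-4, and 3 to 8 in LF-1 to LF-3, so HF and LF cannot be told apart from W content without LF-4. None of the 9 genes lies on chromosome Z in the reference gene table. In bulk tissue, fewer cells of a type and less RNA per cell cannot be told apart, and the part of cell makeup and W content in the values that follow was not tested beyond the fits named.

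All 9 genes were expressed in every library. TEF stood highest, at 62.3 ± 10.5 FPKM (SD, n = 8) summed over its transcripts, above 93.7% of the symbols in the table. CLOCK followed at 29.7 ± 3.13 FPKM, CRY1 at 29.3 ± 1.88, NR1D2 at 26.1 ± 5.24, CRY2 at 22.0 ± 3.26, PER2 at 18.8 ± 4.99 and NPAS2 at 15.6 ± 4.12. ARNTL, the shared partner of CLOCK and NPAS2, was low at 7.77 ± 1.83 FPKM, and PER3 was lowest at 5.49 ± 1.35, above 49.8% of symbols. TEF exceeded CLOCK in all 8 libraries with no overlap of their ranges. Every other pair of neighbours in this order overlapped in range, although PER2 stood above NPAS2 in 5 libraries and NPAS2 above ARNTL in all 8. CRY1 varied least across the libraries, with a coefficient of variation of 6.40% in FPKM. PER2 and NPAS2 varied most, at 26.6% and 26.4%.

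No clock gene passed the test between HF and LF. With edgeR's quasi-likelihood test on estimated counts summed per gene, 0 of the 9 had an adjusted p under 0.05, against 0.656% of all 10511 genes tested, and adjusted p ranged from 0.245 to 0.831. DESeq2 also called 0 of the 9, where it called 5.64% of all genes, and limma on log2(FPKM + 1) called 0. At an unadjusted p under 0.05 edgeR gave 2 of the 9, NR1D2 and PER3, both lower in HF, against 14.9% of all genes and 7.44% in that direction. The log2 fold change of HF over LF was positive for 3 genes and negative for 6. Its median over the 9 was -0.15, beside 0.0012 over all genes, and the median size without sign was 0.35, beside 0.21. In CPM (counts scaled to a common library size, with TMM factors), the groups did not overlap for 1 of the 9, NR1D2, against 9.19% of all genes and 4.64% in that direction. In FPKM the groups overlapped for NR1D2 too. Of all genes 0.295% were called higher in HF.

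**Figure D1:**
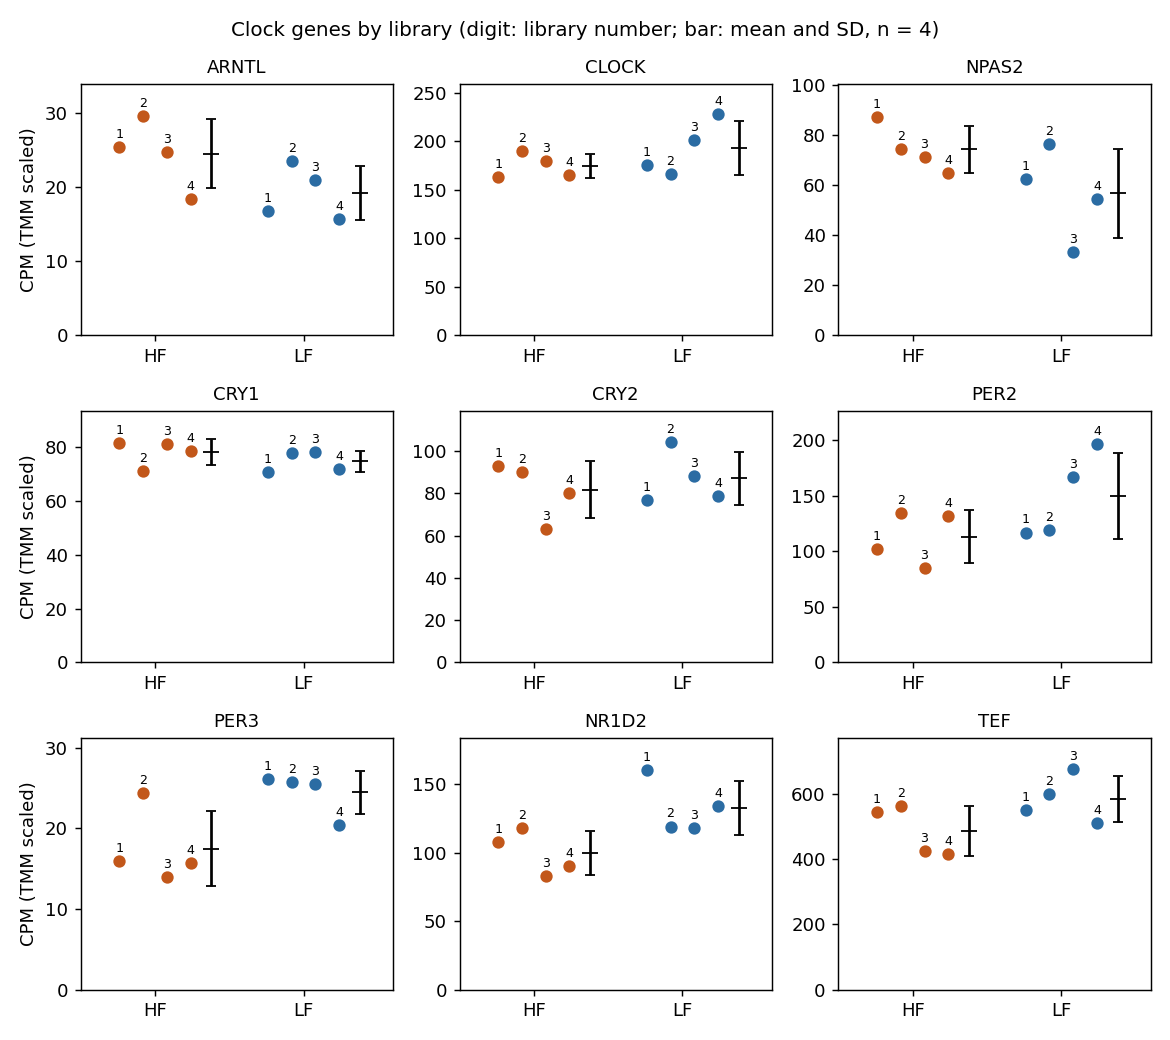
Level of each clock gene in CPM (linear axis from 0) in the 4 HF libraries (orange) and the 4 LF libraries (blue), with the library number above each point and a black bar for the group mean and SD. ARNTL, NPAS2 and CRY1 have the higher mean in HF. CLOCK, CRY2, PER2, PER3, NR1D2 and TEF have the higher mean in LF, and only NR1D2 shows no overlap, by a narrow margin.

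Of the activators, ARNTL stood at 25.4, 29.7, 24.7 and 18.4 CPM in HF-1 to HF-4 and at 16.8, 23.6, 20.9 and 15.8 CPM in LF-1 to LF-4. HF-1, HF-2 and HF-3 lay above every LF library, and HF-4 lay among the LF values. The log2 fold change was 0.35 ± 0.19 (SE), with a 95% interval from -0.08 to 0.77 and an edgeR adjusted p of 0.425. With W content as a covariate, a fit that sets HF against LF-4 alone, it was 0.64 (edgeR adjusted p = 0.288). NPAS2, which can take the place of CLOCK beside ARNTL, was at 87.2, 74.6, 71.4 and 64.8 CPM in HF and at 62.6, 76.3, 33.4 and 54.5 CPM in LF. All 4 HF values exceeded the LF median, but LF-2 lay within the HF range and LF-3 was far below the rest. Its log2 fold change was 0.39 ± 0.23, with an interval from -0.11 to 0.90 and an edgeR adjusted p of 0.451, and 0.21 without LF-3. CLOCK, a partner of ARNTL with histone acetyltransferase activity in mammals, was at 163, 190, 179 and 166 CPM in HF and at 176, 167, 202 and 228 in LF. The highest CLOCK values were LF-3 and LF-4, and the groups overlapped, at a log2 fold change of -0.15 ± 0.13 (edgeR adjusted p = 0.646). It was -0.06 without LF-4 and -0.39 with the W covariate (edgeR adjusted p = 0.261).

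Of the repressors, PER3 lay below every LF library in 3 of the 4 HF libraries. It stood at 15.9, 24.4, 14.0 and 15.7 CPM in HF and at 26.1, 25.7, 25.6 and 20.4 CPM in LF. HF-2 lay within the LF range, and LF-4, the LF library with W-described transcripts, was lowest of its group. The log2 fold change was -0.49 ± 0.19, with an interval from -0.91 to -0.06 (unadjusted p = 0.0307, adjusted p = 0.275 with edgeR). The unadjusted edgeR p of PER3 moved with single libraries. It rose to 0.0761 without HF-1, 0.0808 without HF-3 and 0.0766 without HF-4. Among LF libraries it rose to 0.0644 without LF-1, 0.0641 without LF-2 and 0.0622 without LF-3. It fell to 0.0016 without HF-2 and 0.0210 without LF-4. For the leading transcript alone it was 0.165. With W content as a covariate the log2 fold change was -0.23.

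PER2, a period gene that also responds to glucocorticoids in mammals, had 102, 135, 84.7 and 131 CPM in HF and 117, 119, 167 and 196 CPM in LF. The 4 HF values all lay below the LF median, while LF-1 and LF-2 lay within the HF range. LF-3 and LF-4 lay above every HF library, and HF-1 and HF-3 below every LF library. The log2 fold change was -0.41 ± 0.21, with an interval from -0.88 to 0.07 and an edgeR adjusted p of 0.402. It was -0.25 without LF-4 and -0.80 with W content as a covariate (edgeR adjusted p = 0.18).

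The cryptochromes had the fold changes nearest 0 of the 9 genes. CRY1 ranged from 71.1 to 81.3 CPM in HF and from 70.7 to 78.0 in LF, with a log2 fold change of 0.06 ± 0.10 and an interval from -0.17 to 0.30 (edgeR adjusted p = 0.822). CRY2 ranged from 63.2 to 93.2 CPM in HF and from 76.9 to 104 in LF, at -0.09 ± 0.16, with an interval from -0.44 to 0.26 (edgeR adjusted p = 0.831). Its sign turned to 0.05 with W content as a covariate, to 0.013 without HF-3 and to 0.0055 without LF-2. The interval of CRY1 was the narrowest of the 9 genes.

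NR1D2, or REV-ERB beta, a repressor of ARNTL, had the smallest p of the 9. It stood at 108, 118, 82.7 and 90.2 CPM in HF and at 160, 119, 118 and 134 CPM in LF. In CPM every LF library was above every HF library, by a margin of 117.9 against 118.1 between HF-2 and LF-3. In FPKM the groups overlapped, with HF-2 at 27.6 above LF-2 at 26.1 and LF-3 at 27.2. HF averaged 99.6 ± 16.0 CPM (SD, n = 4) and LF averaged 133 ± 19.6 (SD, n = 4), a fold of 1.33 in favour of LF. The log2 fold change was -0.42 ± 0.15, with an interval from -0.76 to -0.07 (unadjusted p = 0.0222, adjusted p = 0.245 with edgeR). This unadjusted p depended on single libraries. It rose to 0.0616 when HF-3 was dropped, 0.0616 when HF-4 was dropped and 0.0656 when LF-1 was dropped. Dropping any other library kept it under 0.05. The fold change nearest 0, at -0.31, came when LF-1 was dropped, and the fit with the W covariate gave -0.43.

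TEF, the PAR-bZIP output factor, was at 544, 563, 425 and 416 CPM in HF and at 551, 599, 676 and 510 CPM in LF. HF-3 and HF-4 lay below every LF library, and HF-1 and HF-2 lay among the LF values. The log2 fold change was -0.26 ± 0.15, with an interval from -0.61 to 0.08 (edgeR adjusted p = 0.461), and -0.07 with W content as a covariate.

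**Figure D2:**
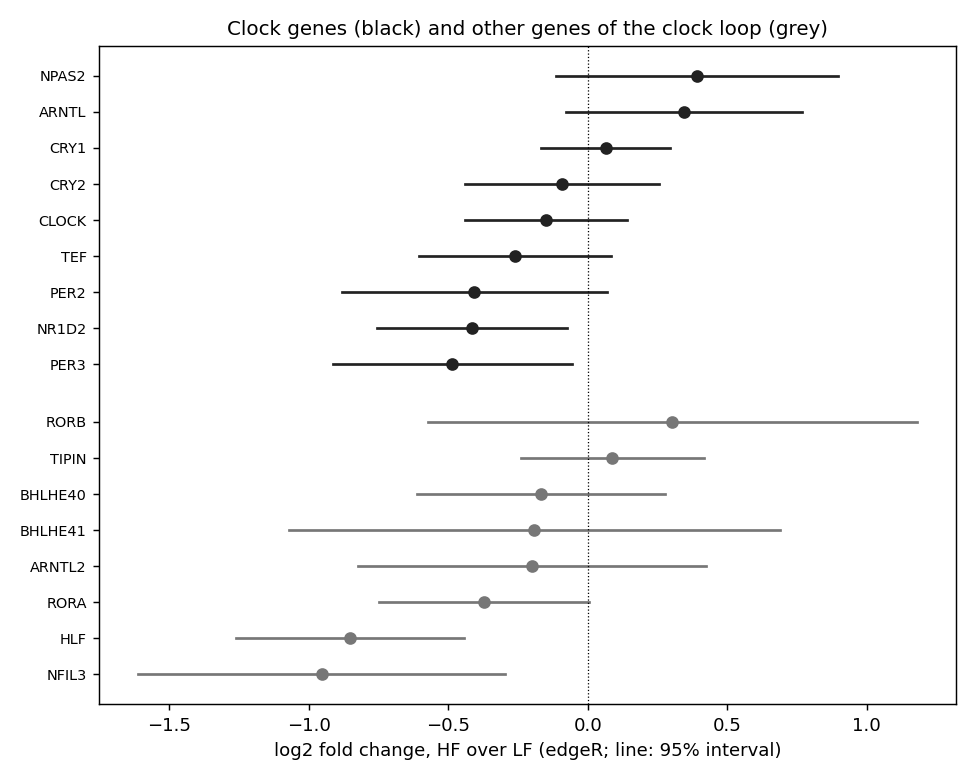
Log2 fold change of HF over LF from edgeR, with 95% intervals, for the 9 clock genes (black) and 8 other genes of the clock loop (grey); the dotted line marks no difference. The intervals of PER3, NR1D2, HLF and NFIL3 lie below 0, and none of the 17 genes passed an adjusted p of 0.05.

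Ratios within a library compared pairs of genes of the clock loop. ARNTL over NR1D2, PER3 and PER2 were among them, and ARNTL over a cryptochrome was not. Of 10 ratios of FPKM computed, chosen after the values were seen, 2 did not overlap between the groups, and no test was made. They combine the single-gene values given above and add no independent measurement, and the share of other gene pairs with such ratios was not computed. ARNTL over NR1D2 was 0.372, 0.396, 0.470 and 0.321 in HF and 0.165, 0.312, 0.279 and 0.185 in LF. The lowest HF ratio, in HF-4, was just above the highest LF ratio, in LF-2. ARNTL over PER3 was 2.14, 1.65, 2.40 and 1.59 in HF and 0.871, 1.23, 1.11 and 1.04 in LF, a wider gap. The other 8 ratios overlapped, ARNTL over PER2 among them, at 0.345 to 0.718 in HF and 0.198 to 0.487 in LF.

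**Figure D3:**
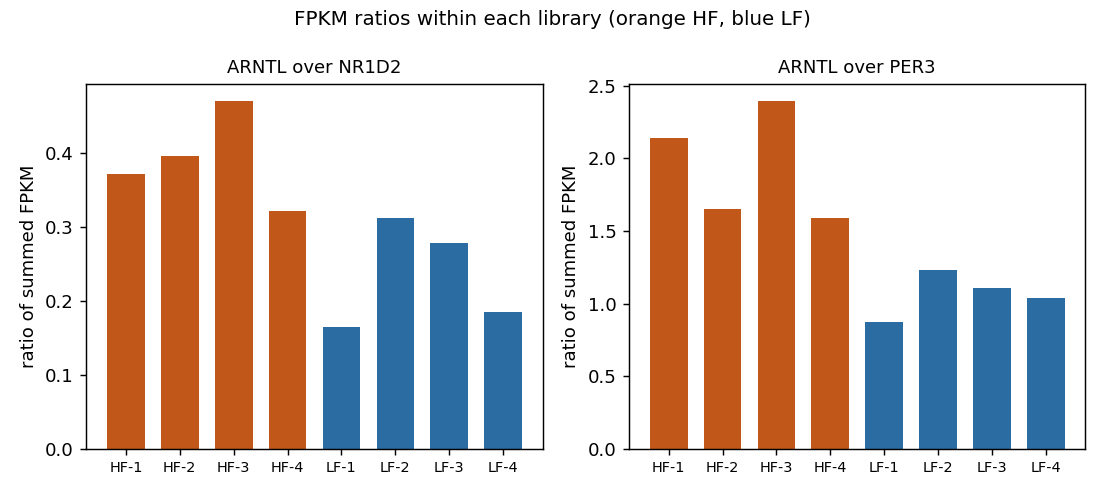
Ratio of summed FPKM within each library (bars from 0) for ARNTL over NR1D2 and ARNTL over PER3, with HF in orange and LF in blue. Each HF bar is higher than each LF bar in both panels, narrowly for ARNTL over NR1D2 (0.321 against 0.312). Both are shown because they did not overlap, out of ratios chosen after the values were seen. The other ratios computed overlapped, and no test was made.

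Of the 60 transcript rows, 6 were at 0 in all libraries and 36 passed the low-count filter. None of the 36 passed the transcript test, where edgeR called 0.0168% of 23879 transcripts, and 3 had an unadjusted p under 0.05, against 7.34% of all transcripts. These were the single row of NR1D2, TEF's leading row TCONS_00009419 and NPAS2's XM_027446035.1. The groups did not overlap in CPM for 2 of the 36, NR1D2's row and XM_027465339.1, against 6.56% of all transcripts. The latter carries the symbol NPAS2 but is described as PAS domain-containing protein 1. It was near the floor, at a mean of 0.81 CPM in HF and 1.69 in LF. Its log2 fold change was -1.05, opposite in sign to that of NPAS2, with an interval from -2.30 to 0.19 (edgeR adjusted p = 0.78). DESeq2, which called 2.09% of transcripts, and limma each called 0 of the member rows. In the authors' deposited table, 1 of the 54 member rows with counts had a p under 0.05. The share was 3.51% over all rows, a set that, unlike the 54, includes rows at 0 in every library. The 1 row was CLOCK's XM_027457074.1, which was at 0 in 6 libraries.

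ARNTL, CRY2 and NR1D2 each rested on nearly 1 row. ARNTL's TCONS_00035540 held 93.3% to 100% of its FPKM, and CRY2's XM_027458086.1 held 99.4% to 100%. CLOCK was led by TCONS_00024991, at 52.6% to 62.6%, and CRY1 was shared by XM_013092052.2, at 47.9% to 62.3%, and XM_027449814.1. PER2 was spread over 10 rows, of which TCONS_00043318 held 30.2% to 45.6%. PER3's TCONS_00061743 held 65.9% to 95.5%. NPAS2 was led by TCONS_00006271, at 27.8% to 57.3%, and by XM_027446035.1. The latter held 34.6%, 31.3%, 44.0% and 38.3% in HF and 19.8%, 32.1%, 26.5% and 28.6% in LF, with a log2 fold change of 0.89 ± 0.35 (edgeR adjusted p = 0.62).

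TEF's transcripts were divided differently between libraries. XM_027454096.1 held 15.6% of TEF's FPKM in HF-1, 6.0% in HF-2 and 34.3% in LF-1, and was at 0 in the other 5 libraries. XM_027454098.1 was at 0 in HF-1 and at 0.4% in LF-1, and held 7.6%, 20.7% and 25.9% in HF-2 to HF-4 and 14.9%, 18.6% and 25.9% in LF-2 to LF-4. The pair together held 13.6% to 34.7%, in no group order. XM_005028466.4 held 19.95%, 20.5%, 25.0% and 29.7% in HF and 2.4%, 18.3%, 14.6% and 13.9% in LF, so its share did not overlap between the groups, while its level had a log2 fold change of 0.63 ± 0.53 (edgeR adjusted p = 0.936). Of 33 clock rows in genes with at least 2 tested rows, the share did not overlap for 2, this row and XM_027465339.1, against 4.08% of all such rows. The leading row TCONS_00009419 held 29.0% to 51.5%, with a log2 fold change of -0.63 ± 0.24 (unadjusted p = 0.0289, adjusted p = 0.594 with edgeR), further from 0 than the -0.26 of the sum. Estimated counts of transcripts of 1 gene share reads, so rows of a gene are not independent measurements.

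**Figure D4:**
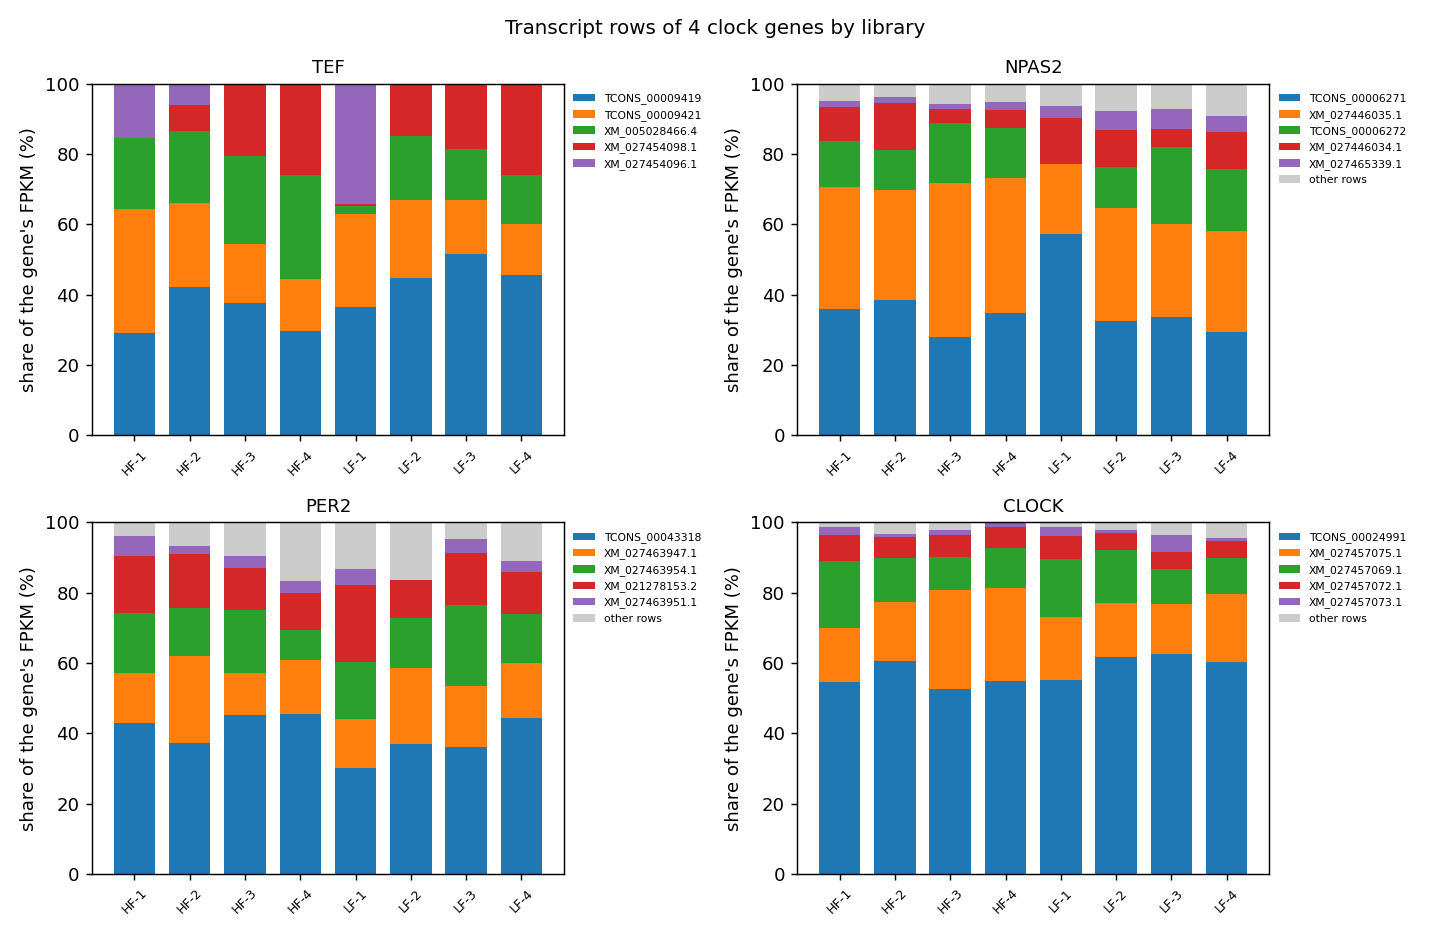
Share of the summed FPKM of TEF, NPAS2, PER2 and CLOCK held by each of the 5 leading transcript rows (colours) and by other rows (grey) in each library, on an axis from 0 to 100%. CLOCK keeps 52.6% to 62.6% in 1 row, while TEF's XM_027454096.1 appears in HF-1, HF-2 and LF-1 only.

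Some rows under these symbols carried the description of another gene, 14 in all. Of the NPAS2 rows, 8 were described as PAS domain-containing protein 1 and held 6.53% of NPAS2 counts, and of the CRY1 rows, 6 were described as cryptochrome-1-like and held 0.726% of CRY1 counts. Without them NPAS2 had a log2 fold change of 0.46 (edgeR adjusted p = 0.387) in place of 0.39.

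Among the libraries of a group, correlations between the clock genes varied in size and sign. With group means removed, log2 CPM of TEF followed ARNTL with r = 0.78 over the 8 libraries, PER3 with 0.58 and CRY2 with 0.54. NPAS2 was at 0.17, CRY1 at 0.14, NR1D2 at 0.01, CLOCK at -0.15 and PER2 at -0.27. TEF and PER3 correlated at 0.69, TEF and CRY2 at 0.70, CLOCK and PER2 at 0.70, and CRY1 and NR1D2 at -0.77. Of the 36 pairs, r had the same sign in HF and in LF for 19. In HF and in LF in turn, ARNTL with NR1D2 was 0.64 and -0.74, with CLOCK 0.66 and -0.59, and with CRY1 -0.48 and 0.93. CLOCK with PER2 was 0.12 and 0.98, and ARNTL with TEF was 0.79 and 0.77. These values are descriptions, since the points share their libraries and their scaling. An r in HF or in LF alone rests on 4 libraries, too few to tell whether the clock genes move together. Of 8421 symbols, those most like ARNTL were GALNT1 at 0.95, SLC36A4 at 0.93 and COMMD2 at 0.92, and those most opposite were UBE2D1 at -0.98, PUS3 at -0.96 and ENV at -0.94. An r of at least 0.9 in size was reached by 26 symbols, 0.309% of those ranked. The same ranking for NR1D1 could not be made, since it had no row.

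The list of other genes of the transcription loop held 17 symbols, with alternative names such as BMAL1 for ARNTL itself and BMAL2 for ARNTL2 among them. Of these, 9 had a row, 8 were tested and 0 passed in either direction with edgeR, with 2 positive and 6 negative fold changes and a median of -0.20. HLF and NFIL3 had an unadjusted p under 0.05, a rate of 14.9% over all genes, and were called by DESeq2, which called 5.64% of all genes, while limma called 0 of the 8. HLF, a PAR-bZIP factor related to TEF, had 147, 127, 98.0 and 129 CPM in HF and 181, 256, 189 and 279 CPM in LF. Every LF library lay above every HF library, and the fitted level was 1.81-fold higher in LF. Its log2 fold change was -0.85 ± 0.18 (edgeR adjusted p = 0.0754), DESeq2 gave an adjusted p of 0.00152, and the range over the alternatives tried was 0.00152 to 0.187. NFIL3, the repressor that competes with PAR-bZIP factors for the same sites, had 111, 133, 113 and 111 CPM in HF and 137, 400, 182 and 186 CPM in LF. The groups did not overlap, and LF-2 was far above the others. Its log2 fold change was -0.95 ± 0.29 (edgeR adjusted p = 0.171). With 1 library left out it was nearest 0 without LF-2, at -0.53 (edgeR adjusted p = 0.147). The highest edgeR adjusted p with 1 library left out was 0.337, without HF-1, at -0.93. DESeq2 gave NFIL3 an adjusted p of 0.0338. With W content as a covariate the log2 fold change of NFIL3 was -0.67. NFIL3 lies on chromosome Z in the reference gene table. RORA, an activator of ARNTL that was chosen after its values were seen, averaged 46.9 ± 9.30 CPM (SD, n = 4) in HF against 60.7 ± 7.995 (n = 4) in LF, with a log2 fold change of -0.37 ± 0.17 (edgeR adjusted p = 0.338).

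Genes that act on clock proteins gave 0 calls in either direction with edgeR, DESeq2 and limma. With edgeR 1 of the modification genes and 0 of the cofactors had an unadjusted p under 0.05, against 14.9% of all genes. Of 16 tested genes for modification and turnover, 4 were positive and 12 negative, with a median of -0.09. GSK3B, a kinase that phosphorylates clock proteins, had a log2 fold change of 0.36 ± 0.14 (edgeR adjusted p = 0.276), and PRKAA1, a catalytic subunit of AMP-activated kinase on chromosome Z, had -0.24 ± 0.11 (edgeR adjusted p = 0.337). Of 14 tested cofactors at chromatin, 4 were positive and 10 negative, with a median of -0.13. NONO, a partner of period proteins in mammals, had -0.21 ± 0.10 (edgeR adjusted p = 0.351), and NCOR1, the corepressor of the REV-ERB receptors, had -0.37 ± 0.18 (edgeR adjusted p = 0.372). Of 12 tested genes whose promoters hold clock boxes in mammals, a list that includes TEF, HLF and NFIL3, 4 were positive and 8 negative, with a median of -0.11. None passed the edgeR threshold, and 3 had an unadjusted p under 0.05 (14.9% over all genes), HLF, NFIL3 and KLF9. Of these, NFIL3 and KLF9 lie on chromosome Z in the reference gene table. DESeq2 called HLF and NFIL3 (5.64% over all genes).

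Glucocorticoid-responsive genes, a list that holds PER2, were chosen with earlier results of these data known, so their counts are not independent of those results. Fold changes were negative for 12 of 12 tested, against 49.8% of all genes, with a median log2 fold change of -0.72. The edgeR test passed 2, against 0.362% of all genes in that direction. KLF9, 1 of the 12, lies on chromosome Z in the reference gene table. At an unadjusted p under 0.05 there were 7 of the 12, against 14.9% of all genes, and DESeq2 called 4, against 5.64%. These 4 were PDK4, ZBTB16, CEBPD and FKBP5. Of them FKBP5 and CEBPD, named after their values were seen, had edgeR log2 fold changes of -2.42 (adjusted p = 0.0565) and -1.29 (adjusted p = 0.0878). FKBP5 ranged from 2.85 to 5.75 CPM in HF and stood at 10.7, 17.9, 13.5 and 46.6 CPM in LF-1 to LF-4. LF-4, the LF library with W-described transcripts, was far above the rest. PDK4, which restrains glucose oxidation, averaged 360 ± 73.3 CPM in HF against 995 ± 135 in LF (SD, n = 4 each), 2.76-fold lower in HF (edgeR adjusted p = 0.0141). ZBTB16, a zinc finger transcription factor, averaged 5.90 ± 2.78 CPM against 59.2 ± 26.9, 10.1-fold lower in HF (edgeR adjusted p = 0.0184). Without HF-1 the adjusted p of both was 0.0623, and without HF-4 it was 0.0684 for PDK4 and 0.0825 for ZBTB16. With the replicate number as a block, the edgeR adjusted p of PDK4 was 0.0654. PER2's own -0.41 lay nearer 0 than the median of that list. Of 10 tested immediate early genes, 2 were positive and 8 negative, with a median of -0.49 and 0 past the edgeR threshold, 3 having an unadjusted p under 0.05, against 14.9% of all genes. NR4A2 was at -1.26 ± 0.36 (edgeR adjusted p = 0.148) and ATF3 at -1.01 ± 0.31 (edgeR adjusted p = 0.169). DESeq2 gave adjusted p of 0.0322 for NR4A2 and 0.0317 for ATF3, the 2 it called of this list, against 5.64% of all genes.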

How the data were processed

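The authors deposited, per the file headers, estimated counts and FPKM for each mRNA transcript in 8 libraries, and log2 fold changes and p-values of their own. Their fold change is the log2 ratio of group mean FPKM, where group means at 0 are set to 0.001, which held within 0.001 in all 48592 rows. The submitters' processing notes list Bowtie2 2.2.8 and TopHat2 2.1.1. Quantifier, genome build and strandedness are not given in sources used here, so reads of overlapping antisense genes cannot be told apart. The lncRNA table was not used.

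Rows were matched by symbol, whatever the case. Estimated counts were summed per symbol, rounded and tested with edgeR 4.0.16 (R 4.3.3; TMM, filterByExpr, robust quasi-likelihood fit, group as the only term), with Benjamini-Hochberg adjustment over all features tested and a threshold of 0.05. Transcript rows were tested alike. Levels between genes are FPKM. Alternatives were other scalings, DESeq2 1.42.0, limma 3.58.1 on log2(FPKM + 1) and log2(FPKM + 0.1), no low-count filter, the replicate number as a block, W content as a covariate, the leading transcript, and each library left out. Sums without rows described as another gene were added after seeing the data. The estimated counts behind a clock gene ranged per library from 209 (ARNTL) to 17796 (TEF).

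The members and lists were chosen with earlier results of these data known. Named are all members, up to 4 members past the threshold per gene list or else the 2 with the smallest p, and the 3 symbols most like and most opposite to ARNTL at a mean of 5 CPM or more. Marker lists are given as summed FPKM. Of 47 member rows with a RefSeq accession, 36 matched the reference gene table (assembly IASCAAS_PekinDuck_T2T) without version, 31 of them to the same gene and 5 to another. It was used for names and for chromosome Z only.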

Additional observations from a re-analysis of the deposited data

Results flagged for a closer look

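In groups of 4 libraries, the gap from the highest or lowest library to its neighbour was compared with the group's range, for 50 groups of named genes, and 3 exceeded Dixon's critical value at 95%. Chance flags about 1 in 20 groups. PER3 in LF had its lowest library, LF-4, at 20.4 CPM, with a gap of 0.90 of the range. NFIL3 in HF had its highest library, HF-2, at 132.6 CPM, with a gap of 0.891 of the range. PRKAA1 in LF had its highest library, LF-4, at 118.3 CPM, with a gap of 0.930 of the range.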

How the results depend on the processing

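The count of clock genes past the threshold stayed at 0 under every alternative tried, and 159 of 162 alternative fold changes of clock genes kept their direction; the 3 others are those of CRY2, at 0.053 with the W covariate and 0.013 and 0.0055 with 1 library left out (range -0.16 to 0.013). The lowest adjusted p of any clock gene was 0.0926, for PER3 without HF-2 (-0.68). Without HF-1 the adjusted p of PER3 was 0.492 (-0.44). Over all genes 69 sums passed, against 593 with DESeq2, 114 with the W covariate, 9 with the replicate block and 2 to 92 leaving out 1 library. Of transcripts 4 passed, against 498 with DESeq2, 16 and 17 with limma at pseudocounts of 1 and 0.1, 30 with the W covariate, 0 with the replicate block and 0 to 35 leaving out 1 library. Whether the replicate numbers pair the libraries is not stated in the labels. Deviations of same-numbered libraries correlated at -0.004, -0.204, -0.133 and 0.018, and 0 libraries correlated best with their own number. These values show no pairing, but a shared factor that moves few genes could leave them low, so they cannot exclude it. Under the block PDK4 had an adjusted p of 0.0654. Of the 6 genes named for their likeness to ARNTL, COMMD2 (0.10) and ENV (-0.92) kept their sign and 4 near 0 changed it: GALNT1 (0.00051) from -0.048 to 0.063, PUS3 (-0.04) from -0.20 to 0.059, SLC36A4 (-0.04) from -0.19 to 0.14 and UBE2D1 (0.01) from -0.045 to 0.043 leaving out 1 library, PUS3 to 0.0074 and 0.0070 with limma, and SLC36A4 to 0.22 and UBE2D1 to -0.085 with the W covariate. DESeq2 also called ENV. The cause of these changes was not tested. Ends of the 95% intervals of the clock genes lay between -0.91 and 0.90 on the log2 scale, and this spread between libraries limits what can be detected.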
